A study of Mus musculus with 6 samples.

Results

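The BCL2 family decides whether the outer membrane of mitochondria is opened during apoptosis, and its transcripts were examined here in mouse embryonic fibroblasts (MEFs) with and without the mitochondrial protease YME1L. The genes were chosen by name: 10 regulators of the family (Bcl2, Bcl2l1, Mcl1, Bax, Bak1, Bid, Bad, Bbc3, Pmaip1 and Bcl2l11) were looked up among the 51499 loci of the count table. All 10 were found and all 10 passed the filter on low counts, together with 13857 other loci. Poly(A) RNA of 3 cultures of wild-type (WT) MEFs and of 3 cultures of Yme1l-/- MEFs had been sequenced. The labels give the genotype of the WT cells as Yme1l fl/fl, so that they carry floxed alleles. Both genotypes are fibroblast lines immortalized with the SV40 large T antigen, which binds and inactivates p53 and RB. According to the study's methods, cells from floxed animals were transduced with Cre recombinase, and clones grown from them were genotyped as WT or Yme1l-/-, so that the WT cells had been exposed to Cre as well. How many clones are behind the 3 cultures is not given in the sources used here, so clonal differences and the loss of Yme1l cannot be told apart.

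The proteins of the family fall into classes that differ in the BCL2 homology (BH) domains they share. Anti-apoptotic members such as BCL2, BCL-XL (from Bcl2l1) and MCL1 hold the other classes in check by binding their BH3 domain. BAX and BAK form pores in the outer membrane once released, which lets cytochrome c reach the cytosol and start the caspase cascade. BH3-only proteins relay stress to both classes: BID, BIM (from Bcl2l11) and PUMA (from Bbc3) bind broadly, whereas BAD binds BCL2 and BCL-XL, and NOXA (from Pmaip1) binds mainly MCL1. Many of these steps take place on protein, by cleavage, phosphorylation or rapid turnover, which transcript counts do not measure. BAX and BAK pores are also a known route for mitochondrial DNA out of mitochondria. For cells without YME1L, the paper states that release of this DNA does not depend on these pores. In its experiments, depleting YME1L still raised interferon-stimulated genes in MEFs that lacked both proteins.

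The libraries held between 33180867 and 49351107 counted fragments, with the WT libraries and Yme1l-/- replicate 1 near the lower end and Yme1l-/- replicates 2 and 3 near the upper. The targeted gene, listed as Yme1l1, was at 188.7 ± 5.16 CPM (fragment counts scaled to a common library size, by edgeR) in WT and at 39.1 ± 1.34 CPM in Yme1l-/- (SD, n = 3), the direction the labels give. Of 8 fibroblast markers, 6 were called lower, as were 34.1% of all tested loci, and Col1a1 higher (1616 to 2177 CPM). Among the 6, Col3a1 was uneven in WT (86.3, 301.2 and 91.1 CPM), and S100a4 was counted in a locus merged with S100a3 and Gm42674. Together the 8 summed to between 10950 and 11510 CPM in WT and to between 6713 and 7195 CPM in Yme1l-/- libraries, with Thy1 at 6 fragments or fewer in every library. Summed levels of 5 epithelial markers were between 32.9 and 34.9 CPM in WT and between 0.334 and 0.686 CPM in Yme1l-/- libraries, in WT nearly all of it Krt18, while 4 endothelial markers summed to 0.888 to 1.44 and 1.67 to 2.003 CPM and 5 leukocyte markers to 1.74 to 1.87 and 3.69 to 4.14 CPM in WT and Yme1l-/-. Of the leukocyte markers, Cd68 was called higher (log2 fold change 1.04) and Lyz2 had 0 to 2 fragments in WT and 8 to 12 in Yme1l-/- libraries, while Ptprc, Cd3e and Adgre1 had at most 1 fragment in any library. The part of these markers in the results was not tested. WT replicate 2 stood apart from the other WT libraries, with a chi-square per degree of freedom over loci of 34.8 against replicate 1 and 37.6 against replicate 3, where replicates 1 and 3 gave 12.7. Yme1l-/- replicate 1 also stood apart, at 21.5 and 16.9 against replicates 2 and 3, which gave 8.64 between them. With 1 or the other of these libraries left out, 6 of the 7 calls among the 10 genes described here were kept and that for Bak1 was lost. In bulk RNA, fewer cells with a transcript and less of it per cell cannot be told apart.

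All 3 anti-apoptotic genes were called lower in Yme1l-/- cells, as were 34.1% of all tested loci. Promoter windows of these genes are shown because they moved together. Each runs from 250 bases before to 50 bases after a transcript start in RefSeq (build GRCm38.p6), 5′ to 3′ on the strand of the gene. The windows are chr1:106714241-106714540 (minus strand) for Bcl2, chr2:152831679-152831978 (minus strand, the most upstream of 3 listed starts) for Bcl2l1 and chr3:95658471-95658770 (plus strand) for Mcl1. Capitals mark matches on either strand to any of 8 short motifs, which were here only GC boxes (GGGCGG).
Bcl2: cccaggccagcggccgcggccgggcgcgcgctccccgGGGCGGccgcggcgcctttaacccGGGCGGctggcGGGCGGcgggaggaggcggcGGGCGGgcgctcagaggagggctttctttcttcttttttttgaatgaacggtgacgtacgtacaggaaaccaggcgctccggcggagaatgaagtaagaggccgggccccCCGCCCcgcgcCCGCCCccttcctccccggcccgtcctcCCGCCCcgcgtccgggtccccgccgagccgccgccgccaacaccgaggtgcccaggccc
Bcl2l1: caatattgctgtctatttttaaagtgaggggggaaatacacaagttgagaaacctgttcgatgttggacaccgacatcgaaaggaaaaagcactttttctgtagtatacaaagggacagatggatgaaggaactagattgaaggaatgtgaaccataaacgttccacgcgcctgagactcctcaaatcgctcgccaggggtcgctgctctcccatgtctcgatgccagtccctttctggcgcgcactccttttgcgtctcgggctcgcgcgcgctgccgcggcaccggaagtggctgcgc
Mcl1: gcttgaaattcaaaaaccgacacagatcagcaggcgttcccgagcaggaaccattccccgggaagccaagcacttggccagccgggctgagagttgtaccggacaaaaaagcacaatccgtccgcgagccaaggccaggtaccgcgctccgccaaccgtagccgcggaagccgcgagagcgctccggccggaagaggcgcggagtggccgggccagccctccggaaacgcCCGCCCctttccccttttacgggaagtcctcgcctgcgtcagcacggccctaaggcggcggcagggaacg

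The windows had little in common in these letters. The Bcl2 window held 7 GC boxes at a GC content of 76%, the Mcl1 window held 1 at 65.7%, and the Bcl2l1 window held none at 52.3%, where the median of all 32851 windows was 52.7%. A GC box was present in 35.7% of all windows. None of the 3 printed windows held an AP-1 site (TGANTCA, in 7.81% of all windows), a cAMP response element (TGACGTCA, 1.79%), the composite site of ATF4 (TGATGNAA, 3.97%), an E-box (CACGTG, 7.15%), a STAT site (TTCNNNGAA, 8.3%), a FOXO site (GTAAACA, 3.65%) or a CCAAT box (37.4%). RefSeq windows were listed for 9 of the 10 genes, 15 in all, and not for Pmaip1. GC boxes were found in 10 of the 15 windows, with 5, 4 and 7 in those of Bbc3, 4 in 1 of the 2 of Bad, 3 in those of Bax and Bid and 3 in each of the 2 of Bcl2l11. CCAAT boxes were in 4 windows, of Bad, Bbc3 and Bcl2l11. Bax also had 2 E-boxes, Bcl2l11 had a FOXO site in 1 of its 2 windows, and Bbc3 had a FOXO site in 1 of its 3 windows and an E-box in another. Motifs and windows were chosen after the values had been seen, and the matches describe letters only.

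Among the anti-apoptotic genes the decrease was largest for Bcl2 and smallest for Mcl1. Bcl2 (chromosome 1, 106538178 to 106714274, mm10), the founding member of the family, was at 24.95, 24.1 and 23.7 CPM in the WT libraries and at 7.49, 9.30 and 8.48 CPM in the Yme1l-/- libraries. The lowest WT value was well above the highest Yme1l-/- value. The counts behind them were 826, 790 and 774 fragments in WT and 262, 469 and 432 in Yme1l-/-. On average 34.7% of the WT level was left (log2 fold change -1.52 ± 0.08 SE, edgeR adjusted p 3.7e-08).

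Bcl2l1 (chromosome 2, 152780668 to 152831728) encodes BCL-XL, which guards the outer membrane in most cell types. It was at 87.7, 87.3 and 84.7 CPM in WT and at 44.4, 41.2 and 42.3 CPM in Yme1l-/-, with replicates close together and the genotypes far apart. On average 49.3% of the WT level remained (log2 fold change -1.02 ± 0.05 SE, edgeR adjusted p 8.3e-09). Mcl1 (chromosome 3, 95658788 to 95663176) encodes a short-lived guardian that is renewed by steady synthesis. It was at 197.4, 192.0 and 168.8 CPM in WT and at 126.4, 120.1 and 121.7 CPM in Yme1l-/-. Replicates of WT varied more for Mcl1 (coefficient of variation 8.16%) than for Bcl2l1 (1.91%), yet no library of one genotype reached the range of the other. On the log2 scale Mcl1 fell by 0.60 ± 0.06 (SE), at an edgeR adjusted p of 3.7e-06.

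**Figure D1:**
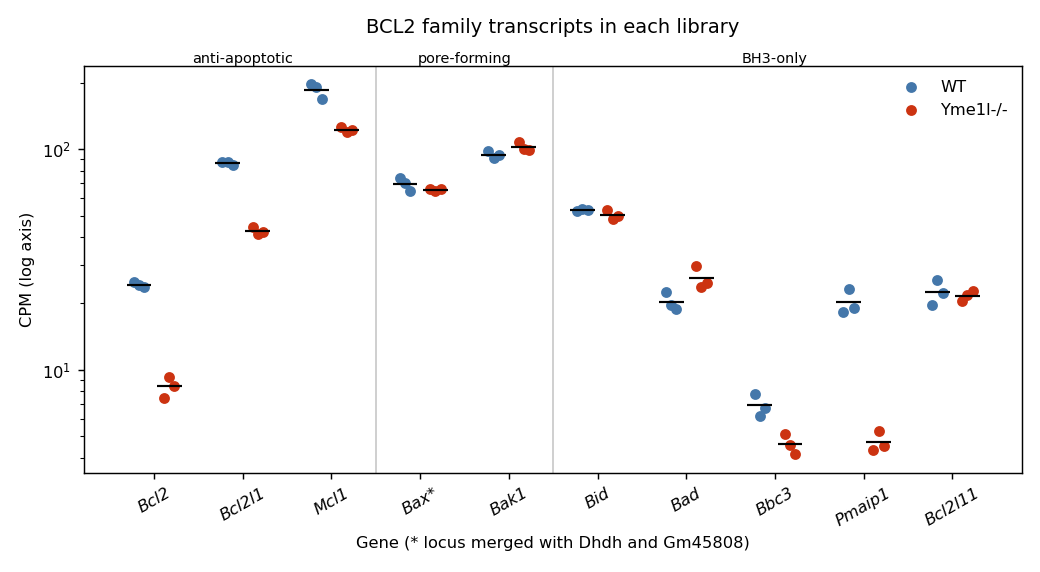
CPM (log axis) of the 10 genes in each of the 6 libraries, with WT in blue, Yme1l-/- in red and a black line at the mean of 3 cultures. Red points lie below all blue points for Bcl2, Bcl2l1, Mcl1, Bbc3 and Pmaip1, above them for Bak1 and Bad, while the groups overlap for Bax, Bid and Bcl2l11, and heights of different genes cannot be compared because CPM is not scaled to length.

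The pore-forming genes showed small differences or none that was called. Bak1 (chromosome 17, 27019810 to 27029009), which encodes the pore protein that sits in the outer membrane of healthy cells, was at 98.2, 90.9 and 93.9 CPM in WT and at 107.9, 100.8 and 99.7 CPM in Yme1l-/-. The groups did not overlap, although WT replicate 1 and Yme1l-/- replicate 3 lay close together. A log2 fold change of 0.12 ± 0.05 (SE) was just past the threshold, with an adjusted p of 0.0473 in edgeR. That call held in 5 of the 14 alternative analyses and was lost without WT replicate 2 (0.09), WT replicate 3 (0.12) or Yme1l-/- replicate 1 (0.09), 2 (0.14) or 3 (0.15, all log2 fold changes), with adjusted p-values from 0.00693 to 0.471 over the alternatives in edgeR and DESeq2.

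Bax encodes the pore protein that moves from the cytosol to mitochondria. The counts of Bax (gene at chromosome 7, 45461697 to 45466898) could not be separated from those of Dhdh and Gm45808. The authors' assembly had merged them into 1 locus (45461697 to 45526268). That locus was at 73.8, 70.1 and 64.9 CPM in WT and at 66.04, 64.6 and 65.97 CPM in Yme1l-/-, so that WT replicate 3 lay within the Yme1l-/- range. The difference (log2 fold change -0.09 ± 0.05 SE, 95% interval -0.20 to 0.03) was not called, at an edgeR adjusted p of 0.170. Without WT replicate 3 it was called lower, at -0.14 with an edgeR adjusted p of 0.0378.

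BH3-only genes went different ways. Pmaip1 (chromosome 18, 66458533 to 66465565) encodes NOXA, which binds MCL1 and promotes its degradation, and it showed the largest difference of all 10 genes. It was at 18.3, 23.2 and 19.1 CPM in WT and at 4.32, 5.28 and 4.53 CPM in Yme1l-/-, from 607, 758 and 625 against 151, 266 and 231 fragments. All Yme1l-/- libraries lay far below the lowest WT library, and 23.3% of the WT level was left on average (log2 fold change -2.10 ± 0.11 SE, edgeR adjusted p 3.4e-08). Bbc3 (chromosome 7, 16308393 to 16318205) encodes PUMA, which like NOXA is a known target of p53, and it was lower as well. It was at 7.79, 6.20 and 6.68 CPM in WT and at 5.12, 4.56 and 4.14 CPM in Yme1l-/-, with only 179 to 258 fragments per library. The groups did not overlap, and 66.9% of the WT level was left (log2 fold change -0.59 ± 0.13 SE, edgeR adjusted p 0.00165).

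Bad (chromosome 19, 6941861 to 6951899), whose protein is kept inactive by phosphorylation under growth factor signalling, was the BH3-only gene that rose. It was at 22.6, 19.7 and 18.9 CPM in WT and at 29.5, 23.8 and 24.8 CPM in Yme1l-/-. Replicate 1 was the highest library in both genotypes, and the highest WT value lay just below the lowest Yme1l-/- value. The mean level was 1.28 times that of WT (edgeR adjusted p 0.00618). On the log2 scale the rise was 0.35 ± 0.09 (SE), and it lay between 0.23 and 0.43 over the alternatives, in each of which the call held.

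For Bid and Bcl2l11 no difference between the genotypes was detected. Bid (chromosome 6, 120891930 to 120916853), whose protein is cut by caspase-8 to link death receptors to mitochondria, was at 52.8, 53.8 and 53.1 CPM in WT and at 53.3, 48.5 and 49.99 CPM in Yme1l-/-. Yme1l-/- replicate 1 lay inside the WT range and the other Yme1l-/- libraries lay below it. Between the genotypes Bid differed by a log2 fold change of -0.07 ± 0.05 (SE, 95% interval -0.18 to 0.04, edgeR adjusted p 0.206). Bcl2l11 (chromosome 2, 128126038 to 128162547), which encodes BIM, was at 19.7, 25.5 and 22.3 CPM in WT and at 20.5, 21.8 and 22.7 CPM in Yme1l-/-, with all Yme1l-/- libraries inside the WT range. For Bcl2l11 the log2 fold change was -0.05 ± 0.09 (SE, 95% interval -0.25 to 0.14, edgeR adjusted p 0.625). Because strand handling in the counting is not given, reads of genes that overlap on the opposite strand cannot be told apart, which touches Bcl2 (D630008O14Rik), Bak1 (Ggnbp1), Bid (Bcl2l13 and Gm17812) and Bad (Gpr137). The counted loci of Bak1 (26973167 to 27036378), Bid (120836212 to 120916853) and Bad (6938069 to 6951898) also reached beyond the gene bounds given here.

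**Figure D2:**
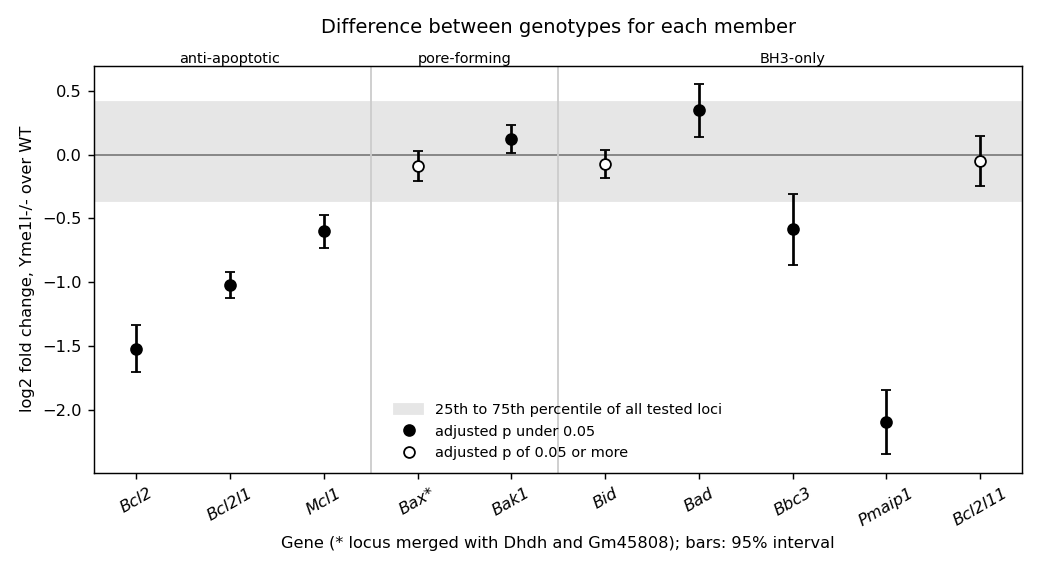
Log2 fold change (Yme1l-/- over WT) of each gene with its 95% interval, filled where the edgeR adjusted p was under 0.05, over a grey band for the 25th to 75th percentile of all 13867 tested loci (-0.36 to 0.41). The 3 anti-apoptotic genes, Bbc3 and Pmaip1 lie below the band, from -0.59 to -2.10, and the other 5 genes lie within it.

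Of the 10 genes, 2 were called higher and 5 lower, and 3 were not called. Calls were also made for 67.7% of all tested loci (33.6% higher and 34.1% lower), so the share of 70% among the 10 genes was near that of the whole comparison and is no result about them. Libraries of the genotypes did not overlap for 7 of the 10 genes, against 71.9% of all tested loci. The median log2 fold change was -0.34 over the 10 genes and 0.00 over all tested loci. Among the latter, Pmaip1 lay at percentile 4.5, Bcl2 at 6.04, Bcl2l1 at 8.59, Mcl1 at 15.3 and Bbc3 at 15.7, whereas Bad, the highest of the 10, lay at 72.2.

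The balance between partners was read within each library as a ratio of fragments, which no scaling between libraries can change. Pairs were taken from known binding partners after the values had been seen and were not tested, and a ratio is meaningful only between genotypes because transcripts differ in length. Fragments of the Bax locus per Bcl2 fragment were 2.96, 2.90 and 2.74 in WT and 8.82, 6.95 and 7.78 in Yme1l-/-, a mean 2.74 times as high. Bak1 fragments per Bcl2l1 fragment were 1.12, 1.041 and 1.11 in WT and 2.43, 2.45 and 2.36 in Yme1l-/-. Set against Mcl1, Bak1 was at 0.498, 0.474 and 0.556 in WT and at 0.854, 0.839 and 0.819 in Yme1l-/-. All of these ratios were higher in every Yme1l-/- library. Bad per Bcl2l1 was 2.59 times as high in Yme1l-/- as in WT. The opposite was measured for Pmaip1 per Mcl1, which went from 0.0929, 0.121 and 0.113 to 0.0342, 0.0439 and 0.0373. In all of these ratios the libraries of the genotypes were separate, as they were for 71.9% of all tested loci taken singly. The ratios restate the values of the single genes given above, mainly the lower Bcl2, Bcl2l1, Mcl1 and Pmaip1, and are no further evidence.

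Levels of different genes were compared on the length-scaled FPKM values (fragments divided by transcript length and library total) of the authors, who gave 1 combined value per genotype. With no spread for these values, neighbours in the order could not be tested. In WT the order was Bax (95.6 FPKM, with Dhdh and Gm45808), Bak1 (60.1), Mcl1 (55.6), Bcl2l1 (41.3), Bid (26.2), Bad (23.1), Pmaip1 (7.92), Bcl2l11 (5.99), Bbc3 (5.47) and Bcl2 (3.39 FPKM). In Yme1l-/- the pore-forming genes were still highest, at 90.97 FPKM for Bax and 66.8 FPKM for Bak1, followed by Mcl1 at 37.1 FPKM. Bad (29.97 FPKM) and Bid (25.3 FPKM) then stood above Bcl2l1 (21.4 FPKM), which moved from the 4th to the 6th place. Pmaip1 moved from the 7th to the 9th place, at 1.85 FPKM, and Bcl2 was again lowest, at 1.24 FPKM. Of the 3 anti-apoptotic genes ranked here, Mcl1 was listed highest and Bcl2 lowest in both genotypes, and other anti-apoptotic genes such as Bcl2l2 were not ranked.

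**Figure D3:**
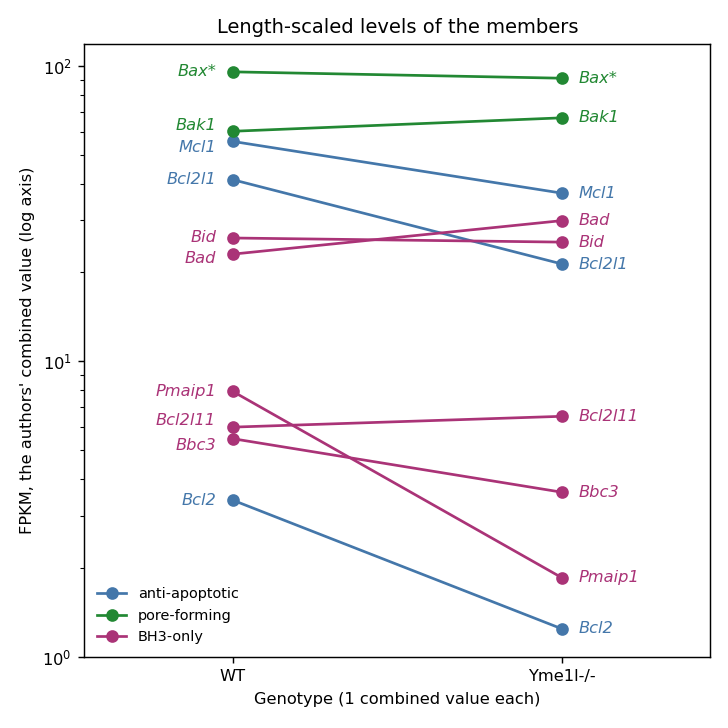
FPKM (log axis, the combined value of the authors for each genotype, with no error) of the 10 genes in WT at the left and Yme1l-/- at the right, coloured by class. Lines of Bcl2, Bcl2l1, Mcl1, Bbc3 and Pmaip1 go down, those of Bax and Bid slightly so and those of Bak1, Bad and Bcl2l11 up, and Bad at 29.97 FPKM ends above Bcl2l1 at 21.4 FPKM, the reverse of their order in WT. The rise of Bcl2l11 (5.99 to 6.515 FPKM) was not seen in CPM, where Yme1l-/- was at 96.4% of WT and not called.

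Median log2 fold changes differed between chromosomes, with -0.44 on chromosome 12 and 0.59 on chromosome 15. Each gene was therefore set beside the tested loci of its own chromosome. Bcl2, Bcl2l1, Mcl1, Bbc3 and Pmaip1 all lay below the 25th percentile of their chromosome, whose medians were -0.16 (chromosome 1), -0.02 (2), -0.12 (3), -0.01 (7) and -0.20 (18). With these medians removed all 5 genes were still called, Bcl2 at -1.36, Mcl1 at -0.48, Bbc3 at -0.58 and Pmaip1 at -1.90. Bak1 lay close to the median of chromosome 17 (0.17), and with that median removed it was at -0.04 and not called. Bid was the only one of the 10 to gain a call in that analysis: chromosome 6 had a median of 0.34, and Bid was at -0.42 against it (edgeR adjusted p 2.5e-05). Bad, at 0.23 after removal, kept its call.

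**Figure D4:**
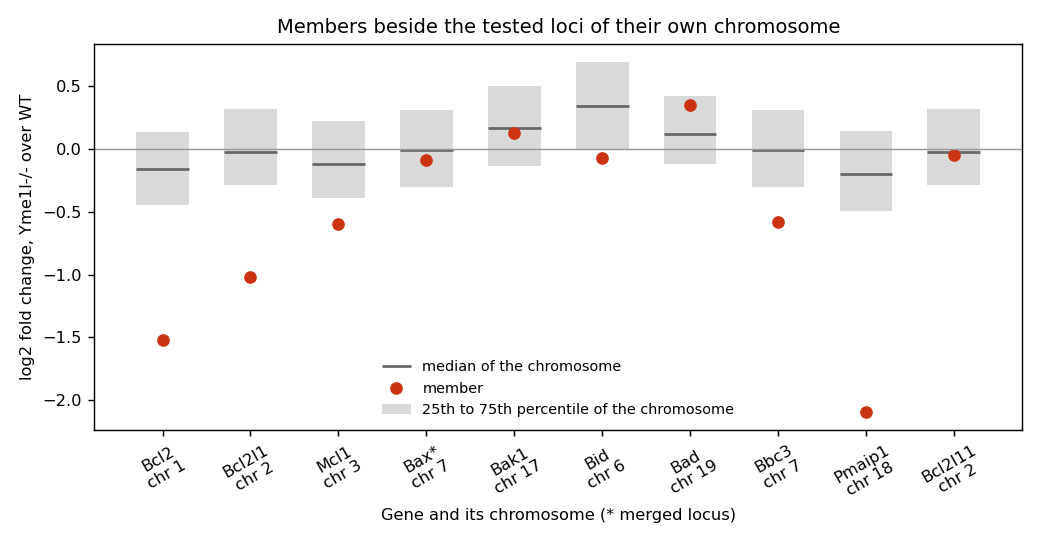
Log2 fold change of each gene (red) over the 25th to 75th percentile (grey bar) and median (line) of the tested loci of its chromosome. Bcl2 at -1.52, Bcl2l1 at -1.02, Mcl1 at -0.60, Bbc3 at -0.59, Pmaip1 at -2.10 and Bid at -0.07 lie below their bars, and the other 4 genes lie within them.

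Further genes of the family and of the pathway were taken from 6 lists of 55 symbols, of which 47 could be tested. In these, 17 were higher, 17 were lower and 13 were not called, and the median log2 fold change was -0.04. The called share of 72.3% was near the 67.7% of all tested loci, and the counts for single lists that follow are to be read against the same 33.6% higher and 34.1% lower. Other BCL2 family genes gave 1 higher and 3 lower call among 9 tested, with a median of -0.11. Bcl2l13, which encodes an outer membrane receptor for mitophagy, rose from 137.2 ± 1.49 to 168.2 ± 1.97 CPM (SD, n = 3), though not relative to chromosome 6, where it was at -0.05. Bnip3, a BH3-related mitophagy receptor, fell from 32.2 ± 5.99 to 20.2 ± 1.79 CPM (SD, n = 3). The calls for Bcl2l2 (BCL-W, log2 fold change -0.31) and Bcl2a1b (-1.42) belong to loci merged with Pabpn1 and Gm20521 and with Mthfs and Gm29094, whose counts cannot be divided. Bok, a relative of BAX and BAK, was at -0.20 ± 0.10 (SE) and Bmf, a BH3-only gene, at 0.59 ± 0.33 (SE), neither of them called. Bmf was called at 1.14 without WT replicate 2, which held 48 of its fragments against 24 and 16 in the other WT libraries, and Bok in 1 of the 14 alternatives. Bcl2a1a, Bcl2a1d and Bcl2l14 had no fragment in any library, Bcl2l10 had 2 or fewer, Bik had 5 to 10, and Hrk had 3 in each WT library and 4 to 6 in the Yme1l-/- libraries. None of these 6 was tested.

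Among 4 genes for outer membrane partners of BAX and BAK, 1 was higher and 2 were lower (median -0.14). Vdac1, the most abundant voltage-dependent anion channel, rose from 281.9 ± 3.60 to 385.9 ± 8.75 CPM (SD, n = 3), or by 0.45 ± 0.04 (SE) on the log2 scale. Vdac2, whose protein holds BAK and BAX at the membrane, was at -0.23 ± 0.04 (SE), and Vdac3 was at -0.26 ± 0.05 (SE). All 3 calls were lost with chromosome medians removed, where Vdac1 was at 0.10, Vdac2 at -0.06 and Vdac3 at 0.05. Mtch2 was at -0.04 ± 0.26 (SE) and not called.

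In the list of the apoptosome, caspases and released proteins, 7 of 13 were higher and 2 were lower (69.2% called, against 67.7% of all tested loci), with a median of 0.31. With chromosome medians removed 5 were higher, since the calls for Cycs and Htra2, which encode cytochrome c and a released protease, were lost. The call for Cycs (edgeR adjusted p 0.0201) held in 9 of the 14 alternatives and was also lost with the replicate block, without WT replicate 3 and without Yme1l-/- replicate 1, among others. Casp6, an effector caspase, rose from 8.498 ± 0.126 to 17.7 ± 0.248 CPM (SD, n = 3), 2.08 times the WT level. Casp2, an initiator, was at 0.54 ± 0.05 (SE), or at 0.20 with the median of chromosome 6 removed, where it kept its call. Aifm1, which encodes apoptosis-inducing factor, was lower at -0.18 ± 0.04 (SE), a call that was lost relative to the X chromosome, at 0.03. Apaf1 and Casp9, which together form the apoptosome with cytochrome c, were at 0.04 ± 0.06 and -0.17 ± 0.07 (SE) and not called. Casp9 was called lower in 4 of the 14 alternatives, and Apaf1 was called lower (-0.263) with the median of chromosome 10 removed.

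Inhibitor of apoptosis (IAP) genes gave 1 higher and 3 lower call of 5, with a median of -0.17. Birc2, which encodes the ubiquitin ligase cIAP1, rose by 0.44 ± 0.06 (SE). Birc6 was at -0.48 ± 0.11, Xiap, the direct inhibitor of caspases, at -0.35 ± 0.06 and Birc5 (survivin) at -0.17 ± 0.04 (log2 fold change ± SE). Relative to the X chromosome Xiap was at -0.14 and no longer called.

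Transcription factors known to act on BCL2 family genes gave 5 higher and 3 lower calls of 10 (80% called, against 67.7% of all tested loci), with a median of 0.21. Trp53, which encodes p53, rose from 228.2 ± 0.593 to 380.3 ± 9.89 CPM (SD, n = 3), whereas its known targets Pmaip1 and Bbc3 were lower and Bax was not called. On the log2 scale the rise of Trp53 was 0.74, or 0.38 relative to chromosome 11. Ddit3, which encodes the stress factor CHOP, rose by 1.97 ± 0.07 and Atf4 by 0.99 ± 0.05 (log2 fold change ± SE), the latter to 0.40 relative to chromosome 15. Foxo1 fell from 75.4 ± 2.56 to 20.8 ± 0.599 CPM (SD, n = 3; log2 fold change -1.86 ± 0.05 SE), and Jun was at -1.37 ± 0.07 (SE). E2f1 was at -0.16 ± 0.05 (SE), and its call was lost under upper-quartile scaling, which left 2 lower calls in the list. Foxo3, which like FOXO1 can drive Bcl2l11, was at -0.04 ± 0.05 (SE) and not called, but was at -0.34 and called with the median of chromosome 10 removed.

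Of 6 tested enzymes that add or remove ubiquitin on BCL2 family proteins, 2 were higher and 4 were lower, against 33.6% and 34.1% of all tested loci, with a median of -0.29. Btrc and Fbxo7, substrate adaptors of ubiquitin ligases, rose by 0.68 ± 0.09 and 0.57 ± 0.06. Both kept their calls in all 14 alternatives, with Fbxo7 as low as 0.27. The ligase gene Itch was at -0.49 ± 0.05, Usp9x, whose product stabilizes MCL1, at -0.40 ± 0.09, and Huwe1, the MCL1 ligase MULE, at -0.31 ± 0.12 (log2 fold change ± SE). The call for Huwe1 (edgeR adjusted p 0.0401) held in 6 of the 14 alternatives, and the log2 fold change was -0.19 without WT replicate 3, which had the most Huwe1 fragments of the WT libraries. Usp9x, Huwe1 and Fbxw7 lost their calls when chromosome medians were removed, at -0.19, -0.11 and -0.14.

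**Figure D5:**
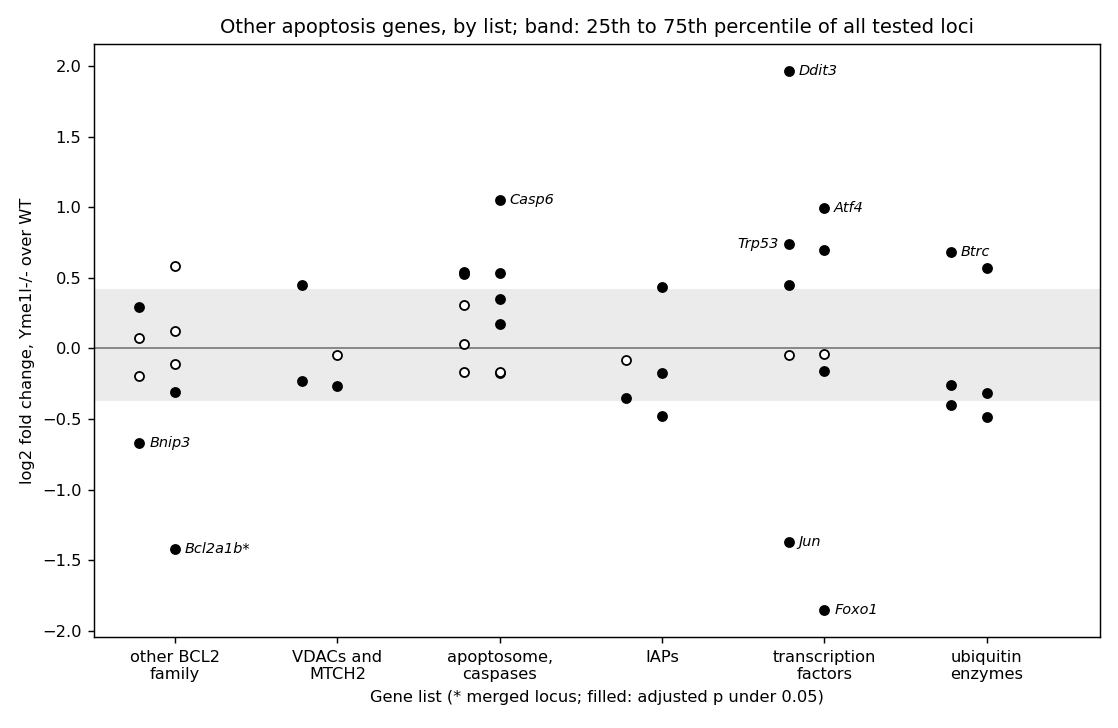
Log2 fold change (Yme1l-/- over WT) of 45 genes in 6 lists, filled where the edgeR adjusted p was under 0.05, over a grey band for the 25th to 75th percentile of all tested loci. Ddit3 at 1.97 and Casp6 at 1.055 are the highest points and Foxo1 at -1.86, Bcl2a1b at -1.42 (merged locus) and Jun at -1.37 the lowest.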

How the data were processed

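RNA sequencing data of 6 libraries (3 WT, 3 Yme1l-/- MEF cultures) were analysed. The authors sequenced stranded poly(A) libraries in pairs of reads, mapped them to mm10 with HISAT 2.0.4, assembled transcripts with StringTie 1.3.3 and compared genotypes with Cufflinks 2.2.1 (Cuffdiff in the submitters' processing notes). The deposited count table holds raw fragment counts per assembled locus, and overlapping genes can share a locus, as Bax does. Handling of strand and of multiply mapped fragments in the counting is not given in the sources used here. Of the deposited table of the authors' comparison, only the FPKM values (1 combined value per genotype) and the position of each locus were used. Its fold changes, p-values and q-values were not.

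Counts were tested in R 4.3.3 with edgeR 4.0.16 (filterByExpr with a minimum count of 10, TMM scaling, robust quasi-likelihood test, two-sided, no covariates) on all 13867 loci that passed, and Benjamini-Hochberg adjusted p-values under 0.05 were calls. SE was taken from the fold change and the F statistic. The fit was first tested on simulated data. P-values measure the spread between cultures. Genes of the lists were named as up to 3 called genes with the largest increase and up to 3 with the largest decrease (genes averaging 1 CPM or more in either genotype), with genes at 3 counts or fewer in 1 genotype only. Genes added to these (Bok, Bmf, Bcl2l15, Bnip3l, Mtch2, Apaf1, Casp9, Foxo3, Fbxw7 and untested ones) were chosen after their values were seen. Some genes of the lists enter the counts but are not reported here by name or plotted. Members, lists and alternatives were chosen with earlier results of these data known. Gene coordinates are from GENCODE M21. Libraries of 33180867 to 49351107 fragments were available, and PCR copies were not identified.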

Additional observations from a re-analysis of the deposited data

How the results depend on the processing

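The 14 alternatives were RLE or upper-quartile scaling, DESeq2 1.42.0, a filter at 1 count or at 10 counts per sample, blocking on replicate number, chromosome medians removed, thinning to the smallest library, and leaving out each culture. Bcl2, Bcl2l1, Mcl1, Bbc3, Pmaip1 and Bad kept direction and call in all 14, and Bcl2l11 was called in none, although its sign changed under upper-quartile scaling and without WT replicate 2. Calls over all loci ranged from 8513 to 10051.

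The number of BCL2 family genes called higher was 1 in place of 2 under RLE scaling, DESeq2, no filter beyond 1 count and with chromosome medians removed, since Bak1 was lost, and 1 to 2 when single cultures were left out. With chromosome medians removed Bak1 (-0.0438), Bcl2l13 (-0.0476), Vdac3 (0.0521), Apaf1 (-0.263) and Aifm1 (0.0338) changed sign, as did Birc3 (0.28), which was not called with or without the medians. With the same medians removed, 2 other BCL2 family genes were higher (also 2 under upper-quartile scaling), 0 outer membrane partners were higher and 0 lower, 1 gene of the apoptosome list was lower, 5 transcription factors were lower and 1 ubiquitin enzyme was lower. The 2 other BCL2 family genes were then Bcl2l15 (0.24, merged with Ap4b1 and Gm43064) and Bnip3l (0.24), in place of Bcl2l13. Under upper-quartile scaling they were Bcl2l13 and Bcl2l15. Between 1 and 3 other BCL2 family genes were called higher when single cultures were left out. The cause was not tested.

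Replicate numbers did not pair the cultures (correlations of deviations 0.144, -0.0939 and 0.048). With the replicate block, 9794 loci and 7 of the 10 genes were called. Depth limits the genes with few fragments, among the 10 Pmaip1 (151 in its lowest library) and Bbc3 (179).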
